A study of Arabidopsis thaliana with 13 samples.

Results

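PIF5, a bHLH transcription factor, was mapped by chromatin immunoprecipitation sequencing in seedlings of Arabidopsis thaliana kept in low blue light. All 3767 binding regions (peaks) that the authors deposited for the anti-FLAG precipitation of PIF5 against its IgG control are described here. They made up 17.9% of the 21012 regions in the 3 lists of the study, and no region was left out.

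The study asked how cryptochromes, the blue-light receptors, and PIF proteins act on growth when blue light is weak. The PIF5 list came from 2 FLAG and 2 IgG libraries, out of 13 libraries for PIF5, PIF4 and CRY2. All 4 were made from whole seedlings of ecotype Columbia with the transgene PIF5-Flash(9xMyc-6xHis-3xFlag), grown for 5 days in white light, given low blue light for 16 h, and used at 2 g per precipitation. The labels do not state the promoter of the transgene, the number of transgenic lines or whether replicates were separate cultures, and whole seedlings mix root and shoot cells. The IgG control was made from plants with the same transgene, and no FLAG control without the tag was used here. The authors called the list on pooled replicates, and values per replicate are not analysed here. No spread between samples can therefore be set beside a difference, and no test was made: differences are given as descriptions. The depth of the libraries was not stated. Intervals are 95% Wilson intervals and cover counting error only.

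PHYTOCHROME INTERACTING FACTORs bind E-box and G-box elements in DNA and promote elongation of the seedling stem. Phytochromes activated by red light lead to their inactivation and breakdown, so they are most active in darkness and in shade. PIF5 is known for its part in shade avoidance, in growth at night and in growth under weak blue light, where auxin and brassinosteroid pathways are among its targets.

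The strength of a peak was its fold enrichment, the authors' ratio of FLAG over control. Across the 3767 peaks the median fold was 2.40, with quartiles of 2.16 and 2.82 and a range of 1.86 to 7.21. The authors' −log10 p had a median of 17.5 and ran from 10.3 to 174, and it ordered the peaks almost as fold did (Spearman correlation 0.982 across 3767 peaks that share the same libraries). Most of the list therefore lay in a narrow band of low ratios with a long upper tail. The strongest 377 peaks began at a fold of 3.47, while the weakest 376 lay between 1.86 and 2.07.

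A summit was assigned to the nearest protein-coding gene within 3 kb. By this rule 3684 summits (97.8%) belonged to 3258 of 27444 protein-coding genes, or 11.9% of them. The table used for gene positions gives no strand, so a summit outside a gene could lie before its start or after its end. It names each gene by a symbol or, where there is none, by its locus.

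The strongest peak lay on chromosome 2, from 19298593 to 19299494, with a fold of 7.21. Its summit was 448 bp from ASY3, a meiotic chromosome axis protein, and 1186 bp from PIL1, a shade-induced bHLH gene on its other side. Positions between a nearest gene and a known shade or growth gene recurred among the strongest peaks. The peak with a fold of 5.79 was assigned to AT1G02350 at 524 bp and lay 1414 bp from HFR1, an atypical bHLH protein that binds PIFs and blocks them. The peak with a fold of 6.53 was assigned to AT2G44920 at 880 bp and lay 3700 bp from HB4, a homeodomain gene of the shade response. The peak with a fold of 6.12, inside AT4G34150, lay 586 bp from CYCD3;1, a cyclin of the cell cycle.

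Light-signalling genes and a photoreceptor were among the 20 genes with the strongest peaks. The peak at BBX29 (chromosome 5, 22114880 to 22116322) had a fold of 6.96, and that at BBX28 (chromosome 4, 13674166 to 13676165) a fold of 6.34. Both genes encode B-box proteins of light signalling. The peak at PHYB, the main red-light receptor of the seedling, covered chromosome 2 from 8137916 to 8140023, had a fold of 6.08 and a summit 164 bp from the gene. The peak at PIL2 (PIF6), a member of the PIF family itself, had a fold of 5.80 at 567 bp.

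Genes of 3 growth hormones were also among the 20 genes with the strongest peaks. For brassinosteroids these were BEH4, a relative of the transcription factors BZR1 and BES1, with a fold of 6.66 at 302 bp, and BIM1 and BIM2, bHLH partners of BES1. BIM1 had a fold of 6.29 at 2659 bp, and BIM2 a fold of 5.93 at 90 bp. For cytokinins they were CKX5, an enzyme that degrades the hormone, with a fold of 6.28 at 620 bp, and PUP14, a cytokinin transporter, with a fold of 5.94 inside the gene. For auxin it was IAA2, a repressor of the Aux/IAA family, with a fold of 6.06 at 138 bp inside the gene. ST2A, a sulfotransferase that modifies a jasmonate, had a fold of 5.82 at 1849 bp. The other genes of this group were AT5G57670 (6.42), AT4G01245 (6.33), AT3G15220 (6.23), AT5G02580 (6.21) and AT4G32020 (5.90), and their roles are not given in the files used. Of the 20 summits, 4 lay inside their gene, 13 lay outside within 1 kb and 3 lay between 1 and 3 kb away.

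**Figure D1:**
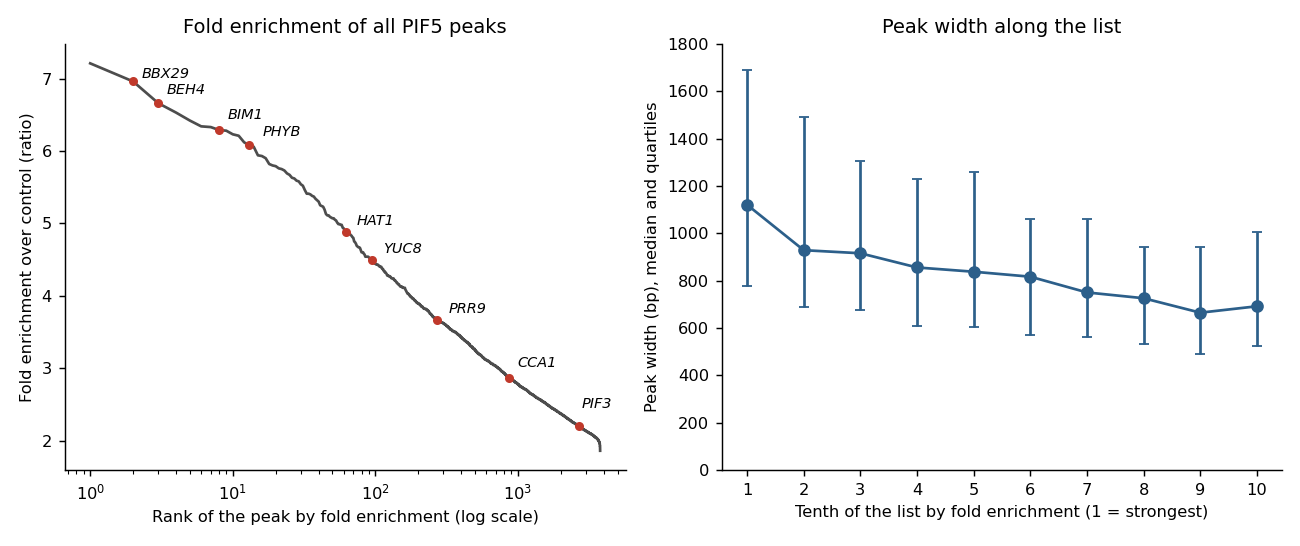
Left, fold enrichment (ratio of FLAG over control) of each of the 3767 PIF5 peaks against its rank on a log scale, with red points for 9 listed genes. Right, peak width in bp along the list in steps of 10%, with the median as a point and the quartiles as bars. Fold falls from 7.21 to 1.86, and the median width falls from 1121 bp in the strongest 10% to 692 bp in the weakest 10%.

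Genes at the middle and the end of the list were named by position alone. The 3 peaks in the middle, at AT2G45670, AT3G13910 and AT3G25720, each had a fold of 2.40. The last 3 were at AT2G32430 (1.89), AT5G19150 (1.89) and AHL22, an AT-hook DNA-binding protein (1.86). The summit at AHL22 was 1821 bp from the gene.

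Gene functions were read from 22 lists with 418 genes, covering light, the clock, hormones, growth and comparison groups. These lists were chosen with earlier results of these data known. A summit was assigned to 158 of the 418 (37.8%, 33.3 to 42.5), against 11.9% of all genes. The lists are made of well-studied genes, and studied genes in general had a summit more often: 15.8% of the 10374 genes with a symbol had a summit and 9.48% of the 17070 without. The median of the strongest fold was 2.73 for listed genes with a summit and 2.44 for all genes with one. Of the 158, 111 lay in the stronger 50% of the genes with a summit and 39 in the strongest 10%.

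Of the known PIF targets and shade genes, 13 of 20 had a summit (65.0%, 43.3 to 81.9, against 11.9% of all genes). These are genes chosen for earlier reports of PIF binding or shade response, so their share is no independent sign of binding. Behind ST2A (5.82) and PIF6 (5.80) came IBH1, an atypical bHLH protein that represses cell elongation, with 5.76 at 1768 bp. ATHB4 (HB4) had a fold of 5.62 at 1834 bp and FHL, which helps to import phytochrome A into the nucleus, 5.38 at 126 bp. HAT1, another homeodomain gene of the shade response, had 4.88 at 971 bp. PIL1, HFR1 and PRE2 to PRE6 had no assigned summit, although peaks at PIL1 and HFR1 were counted for their neighbours above. Many summits of this list lay beyond 1 kb: with assignment only within 1 kb, 35.0% of its members had one, against 10.6% of all genes. That is below the 42.9% of housekeeping genes and the 51.5% of brassinosteroid genes under the same setting.

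Among the photoreceptors 4 of 13 had a summit (30.8%, 12.7 to 57.6, against 11.9% of all genes), 3 phytochromes and 1 phototropin. After PHYB (6.08) these were PHOT1, the blue-light receptor of phototropism, with 3.71 at 1508 bp, PHYA, the far-red receptor, with 3.36 inside the gene, and PHYD with 2.66 at 25 bp. No summit was assigned to the cryptochromes CRY1 and CRY2, nor to PHYC, PHYE, PHOT2, UVR8, ZTL, FKF1 or LKP2. The strongest of these peaks was thus at PHYB, whose active form is known to remove PIF proteins.

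Of 29 light-signalling genes, 6 had a summit (20.7%, 9.85 to 38.4, against 11.9% of all genes). Besides BBX29 and BBX28 they were BBX21, a B-box activator, with 3.33, and COP1, the ubiquitin ligase that represses light responses, with 3.01. SPA1, its partner, had 2.95 and BBX24 had 2.21. HY5, the main activator of light responses, had no assigned summit, but a peak with a fold of 3.04 assigned to its neighbour OCP3 lay within 1 kb of it. Every gene within 1 kb of a summit, whether nearest or not, came to 15.2% of all genes, and by that count 8 of the 29 were reached.

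The PIF family itself had 3 members with a summit out of 9 (33.3%, 12.1 to 64.6, against 11.9% of all genes). PIF6 stood far above the other pair, PIF5 with 2.44 and PIF3 with 2.20. The summit at PIF5 (PIL6 in the gene table) lay inside the gene, 1358 bp from its edge. Since the plants carried a PIF5 transgene, DNA of the transgene and of the native gene cannot be told apart at this peak. PIF1, PIF4, PIF7, PIF8, SPT and ALC had no assigned summit.

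Clock genes were reached in 11 of 23 cases (47.8%, 29.2 to 67.0, against 11.9% of all genes). GI had the strongest peak, with a fold of 4.43 at 971 bp; it acts in the evening phase of the clock and in flowering. PRR9, a morning repressor, had 3.66, LUX, a subunit of the evening complex, 3.39, and CHE (TCP11 in the gene table) 3.19. CCA1 (2.87) and LHY (2.65), the morning pair, and TOC1 (2.61), the evening repressor, lay closer to the median of the list. The summits of LNK2, CCA1, LHY, PRR9, PRR7, LUX and RVE2 lay 78 to 185 bp outside the gene, those of GI and PRR5 at 971 and 1324 bp, and those of TOC1 and CHE inside it. ELF3 and ELF4, the other subunits of the evening complex, had none. Among 9 photoperiod genes, 3 had a summit (33.3%, 12.1 to 64.6), all of them CYCLING DOF FACTORs: CDF5 (5.13), CDF3 (2.48) and CDF1 (1.98). CO, FT and FLC had none.

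Auxin genes had summits at each step of the pathway listed, with the lowest share in synthesis. Of 15 synthesis genes, 2 had a summit (13.3%, 3.74 to 37.9), close to the 11.9% of all genes. These were YUC8 with a fold of 4.49 and YUC9 with 3.85, flavin monooxygenases that make auxin. Both peaks were in the strongest 10% of genes with a summit. TAA1, which acts in the step before, had none.

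In auxin perception, 13 of 33 receptors and Aux/IAA repressors had a summit (39.4%, 24.7 to 56.3, against 11.9% of all genes). The F-box receptors among them were AFB2 (3.58), TIR1 (3.19), AFB1 (2.69) and AFB3 (2.07). The Aux/IAA genes ranged from 6.06 at IAA2 to 2.06 at IAA13, with IAA16 at 3.93, IAA19 at 3.85 and IAA7 at 3.70. IAA16 had 3 summits. IAA29, another shade-induced repressor, had none.

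Downstream, 6 of 15 ARF transcription factors had a summit (40.0%, against 11.9% of all genes), from ARF2 (3.02) to ARF8 (2.10). None was in the strongest 10%. Among transport genes 8 of 17 had one (47.1%). PIN3, an efflux carrier, had 3.19, AUX1, the influx carrier, 3.15, and WAG1, a kinase that acts on PIN proteins, 3.06. Among early response genes 11 of 20 had one (55.0%, 34.2 to 74.2). GH3.5 (3.52), GH3.17 (3.41), GH3.3 (3.06) and GH3.6 (3.03) encode enzymes that conjugate auxin, and GH3.5 and GH3.6 had 3 summits each. The SAUR genes, which promote cell expansion, ranged from SAUR24 (2.54) to SAUR14 (1.97). SAUR genes stand side by side and are alike, so neighbouring members can share a peak, as SAUR22 and SAUR23 did.

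Brassinosteroid genes had the largest number of members with a summit, 20 of 33 (60.6%, 43.7 to 75.3, against 11.9% of all genes). Of these, 9 were in the strongest 10% of genes with a summit and 8 had 2 or more summits. Among all genes with a summit 11.6% had 2 or more. The 20 included synthesis, receptor, kinase and transcription factor genes. In synthesis DWF4, which controls the flow into the pathway, had 4.67 inside the gene, while CPD (2.44), ROT3 (2.21) and DET2 (2.08) were weaker. BRI1, the receptor, had 3.59 at 2877 bp and its partner BAK1 had 2.10. BIN2, the kinase that holds the pathway back, had 4.54. Of the BZR1 family, BEH4 (6.66), BEH2 (3.88), BEH1 (3.62), BEH3 (2.89) and BZR1 (2.21) had a summit and BES1 did not. Among the response genes EXO had 4.88 and EXL2 4.81. BAS1, an enzyme that inactivates the hormone, had 2.74.

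Gibberellin genes were reached in 7 of 22 cases (31.8%, 16.4 to 52.7), against 11.9% of all genes. RGA, a DELLA repressor that binds PIFs, had a fold of 4.60 at 1556 bp, and the receptors GID1A, GID1B and GID1C had 3.82, 3.38 and 2.16. GA20ox3, a synthesis gene, had 2.71 at 1740 bp and GA2ox6, an enzyme that inactivates the hormone, 3.14, while the synthesis genes GA20ox1 and GA3ox1 had none. GAI, the other DELLA gene with a summit, had 2.03.

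In the ethylene list 9 of 23 genes had a summit (39.1%, 22.2 to 59.2, against 11.9% of all genes). ACS8, an enzyme of ethylene synthesis, had 5.41 and ACS6 3.69. The transcription factor EIL1 had 3.41, and EBF1, an F-box protein that removes it, 3.05. The list for abscisic acid had 7 of 19 (36.8%, 19.15 to 59.0), led by ABF3, a bZIP factor (4.47), and HAI1, a phosphatase (2.87). NCED3, which makes the precursor of the hormone, had an assigned peak of 2.72, and a stronger peak of 5.05 whose summit lay 5041 bp away and was not assigned. The jasmonate list had 5 of 14 (35.7%, 16.3 to 61.2), all JAZ repressors, from JAZ3 (3.60) to JAZ5 (2.03). The cytokinin list had 7 of 17 (41.2%, 21.6 to 64.0): after CKX5 came ARR4 (3.46), a response regulator, and CKX7 (2.52).

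Genes of cell wall growth were reached in 10 of 27 cases (37.0%, 21.5 to 55.8, against 11.9% of all genes), none of them in the strongest 10%. XTH22 (TCH4), an enzyme that remodels xyloglucan, had 3.29, XTH15 3.10, and CESA2, a cellulose synthase, 3.02. EXPA8, an expansin, had 2.86 and CESA6 2.72. The growth enzymes thus had summits of middling strength, with a median of 2.68 against 3.17 for the brassinosteroid list.

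Greening genes had a low count that does not stand apart from the 11.9% of all genes. Of 19 genes of chlorophyll synthesis and its regulators, only HEMA1, which opens the pathway, had a summit (5.26%, 0.935 to 24.6), with a fold of 2.13 and its summit 1117 bp inside the gene. GUN5, PORA, PORB, PORC, GLK1 and GLK2 were among the 18 without. Genes of light harvesting did have summits, 7 of 17 (41.2%), led by LHCB1.3 (CAB1) at 3.14, LHCB6 at 3.05 and LHCA2 at 2.59. Their median fold of 2.42 was close to that of all genes with a summit.

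The comparison lists limit how the shares can be read. Of 14 housekeeping genes, used as reference genes for expression, 6 had a summit (42.9%, 21.4 to 67.4, against 11.9% of all genes). They were UBQ10 (2.86), ACT2 (2.83), GAPC1 (2.64), ACT7 (2.57), TUB2 (2.52) and EF1A (1.93). The housekeeping share was above those of 16 of the other 21 lists, so the share alone did not set most hormone or light lists apart. Strength also differed between lists. None of the 6 housekeeping genes with a summit was in the strongest 10%, but so few genes cannot set the list apart. The same held for ARF, auxin transport, cell wall, light-harvesting, greening, and seed and flower genes. Every other list had a member there. The housekeeping median fold of 2.61 was below those of most other lists, among them shade genes (3.58), brassinosteroids (3.17) and the clock (2.68). It was above those of the rest, among them GH3 and SAUR genes (2.54), auxin transport (2.50) and cytokinin (2.38). The lists with most members in the strongest 10% were those for brassinosteroids (9 of 20 with a summit), shade genes (7 of 13) and auxin perception (6 of 13). Of 12 seed and flower genes, 1 had a summit, OLEO1, an oil-body protein, with 2.44 (8.33%, 1.49 to 35.4). Whether such genes would give peaks without the tag was not tested.

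**Figure D2:**
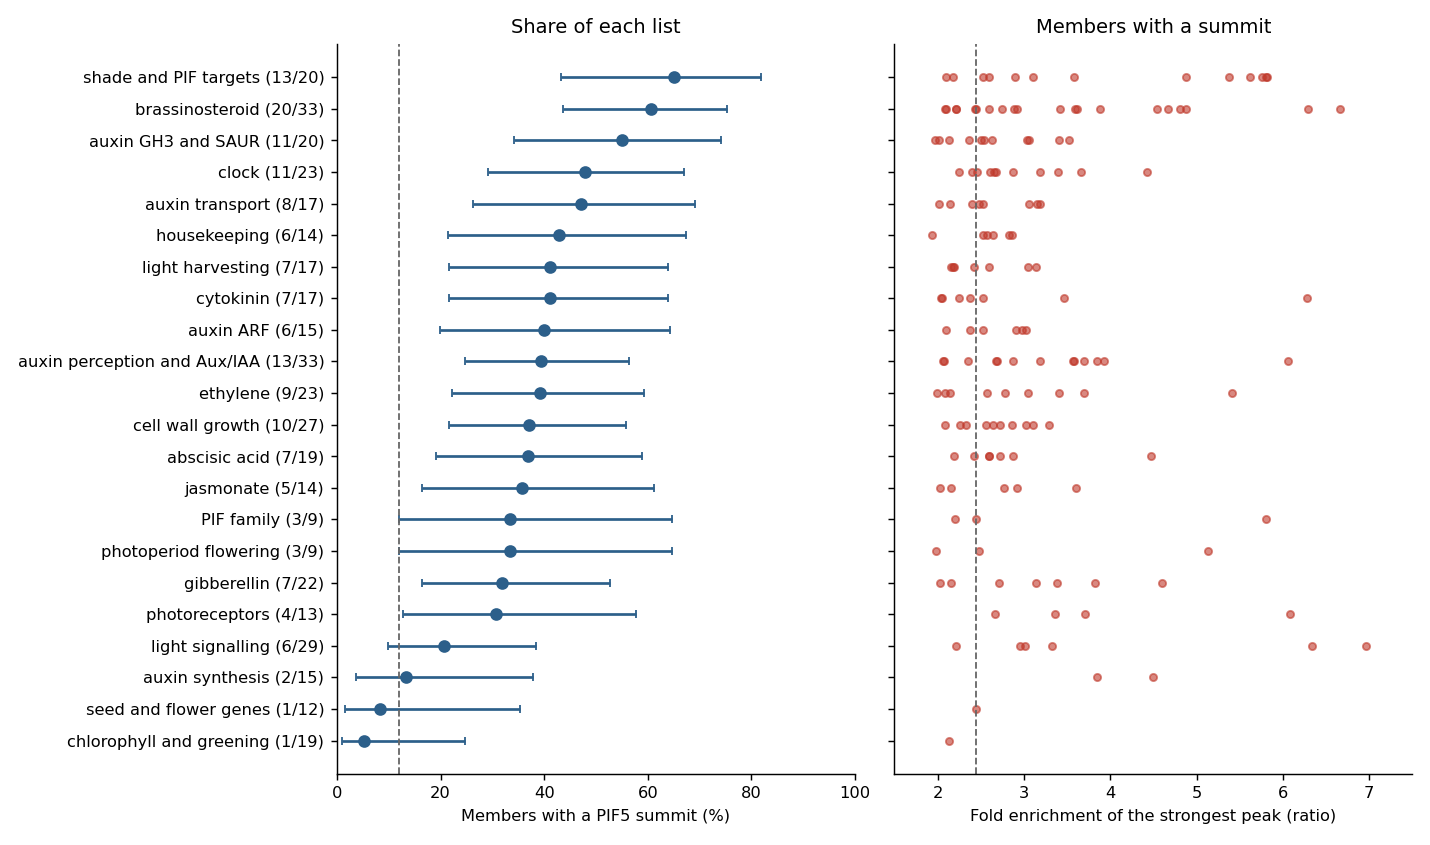
Left, percent of the members of each gene list with a PIF5 summit, with 95% Wilson intervals and, in brackets, members with a summit out of all members; the dashed line is the 11.9% of all genes. Right, fold enrichment of the strongest peak of each member with a summit; the dashed line is the median of 2.44 over all 3258 genes with one. Housekeeping genes reach 42.9% and a fold of 2.86 over 6 genes, and brassinosteroid genes 60.6% and a fold of 6.66 over 20. These highest folds are not on equal terms, since the number of genes differs.

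Gene families picked by their symbols widened the view. Among 29 such families, chosen and trimmed after values were seen, the WRKY factors of stress and defence had the highest share, 30 of 71 (42.3%, 31.5 to 53.9). The CIPK and CBL proteins of calcium signalling followed with 15 of 36 (41.7%), ERF and DREB factors with 22 of 60 (36.7%), and homeobox genes with 17 of 47 (36.2%). Heat shock factors had 7 of 21, aquaporins 10 of 32 and B-box proteins 9 of 31. At the other end were AGAMOUS-like MADS genes with 5 of 98 (5.10%), defensin-like peptides with 2 of 86 (2.33%) and cytosolic ribosomal proteins with 0 of 32, for which the interval reaches 10.7%. Cytochrome P450 enzymes (31 of 234, 13.2%) and ABC transporters (15 of 127, 11.8%) lay close to the 11.9% of all genes. Both were below the 15.8% of genes with a symbol, which is the nearer comparison for families picked by symbol. The 13 transcription factor families together had a summit in 167 of 718 genes (23.3%, 20.3 to 26.5), against that 15.8%.

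The families also differed in the strength of their peaks, and those named here were picked after their values were seen. The CIPK and CBL genes with a summit had a median place 76.1% of the way down the order of genes by fold, and the SAUR genes 66.8%. The TCP factors, with a summit in 6 of 22 genes, had a median place of 14.8%, and heat shock factors 21.2%. The WRKY genes lay in the middle at 49.1%.

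Along the list, transcription factors were fewest at the weak end. In the strongest 10% of genes with a summit (fold 3.51 to 7.21) 6.15% belonged to the 13 transcription factor families, and in the next 7.06%. The share stayed between 4.29 and 6.44% in the following steps of 10%, and was 1.23% (0.478 to 3.11) in the last, where folds ran from 1.89 to 2.07. Over all genes it was 2.62%. Listed genes numbered 39 in the strongest 10% and 11 in the weakest. Genes without a symbol made up 44.0% of the strongest 10%, 57.7% of the weakest 10% and 62.2% of all genes.

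Summits sat at the edges of genes. Outside genes but within 1 kb lay 1820 summits (48.3%, 46.7 to 49.9), and such positions hold 20.4% of the bases of the nuclear chromosomes. Inside protein-coding genes lay 1344 summits (35.7%, 34.2 to 37.2), against 54.1% of bases. Between 1 and 3 kb lay 520 summits (13.8%) and beyond 3 kb 83 (2.20%), against 11.1% and 14.3% of bases. The excess over the base share was thus in the flanks, and the deficit was in gene interiors and in gene-poor stretches.

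The concentration was sharpest just outside the gene. In the first 250 bp outside a gene there were 112 summits per Mb, 3.53 times their share of bases, and in the first 250 bp inside 57.5 per Mb (1.82 times). Deeper than 1000 bp inside the density fell to 6.49 per Mb, and beyond 3000 bp outside to 4.86 per Mb. The distance had a median of 358 bp for summits outside genes and 208.5 bp to the nearer edge for summits inside. When the gene positions were shifted along the chromosomes by 2000 bp, the share of summits in the flanks fell from 48.3% to 20.3%.

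**Figure D3:**
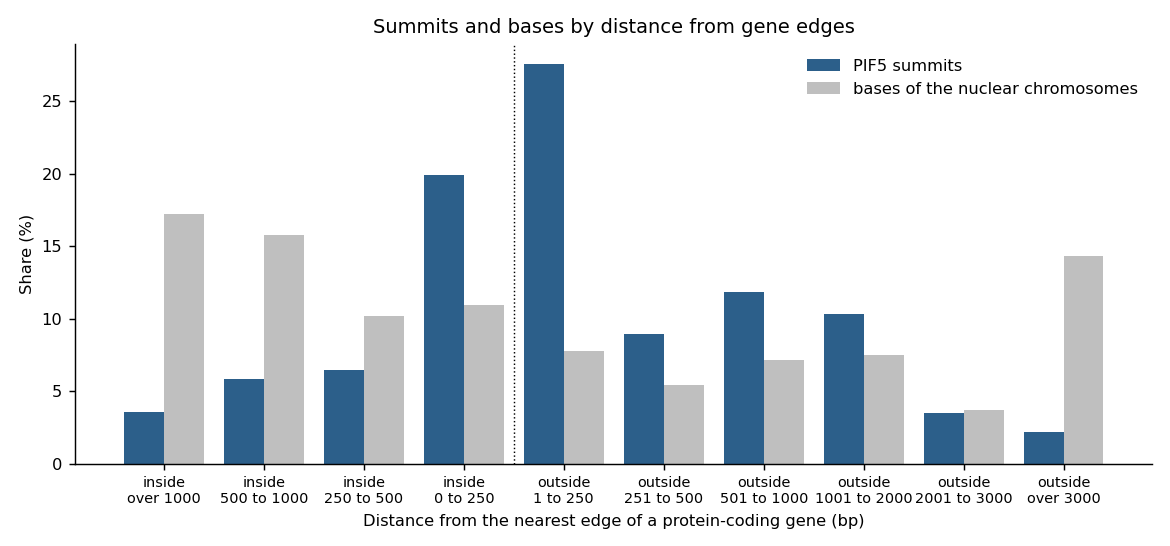
Share in percent of the 3767 PIF5 summits (blue) and of nuclear bases (grey) by distance in bp from the nearest edge of a protein-coding gene, with the dotted line at the edge. Summits outnumber their base share within 250 bp of an edge, 27.6% against 7.80% outside and 19.9% against 10.9% inside, and fall below it deeper in genes and beyond 3000 bp.

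Inside and outside were not sharply separated, because peaks were wide. Of the 1344 peaks with a summit inside a gene, 994 (74.0%) reached past its edge, and 108 (8.04%) covered the whole gene. Of the 2423 peaks with a summit outside, 1349 (55.7%) overlapped the nearest gene. A gene within 1 kb on both sides was found for 719 of them (29.7%), and 29 summits lay in 2 or more overlapping genes. A further 146 summits (3.88%) lay outside protein-coding genes but inside another kind of gene, 114 of them in long non-coding RNA genes and 3 in pseudogenes.

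Position and strength were only weakly related, with a Spearman correlation of 0.0883 between edge distance and fold across 3767 peaks. In the strongest 10% 30.2% of summits were inside genes, and the median distance of the others was 545 bp. In the weakest 10% 44.4% were inside, and the distance was 219 bp. The steps between were not in order, with 38.7% inside in the third and 31.6% in the sixth. Median folds differed little between places, from 2.36 inside genes to 2.50 beyond 3 kb.

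Summits outside genes fell in longer spacers than the typical one. Intergenic stretches that held a summit had a median length of 2477 bp per summit, against 877 bp for all 23810 stretches. The share of stretches with a summit rose from 2.93% for those of up to 500 bp to 21.5% for those of 4001 to 8000 bp, and was 14.6% above 8000 bp. Per base the order was the opposite: 148 summits per Mb in the shortest class and 9.33 in the longest. Long spacers thus held a summit more often, but short spacers held more summits for their length. By gene length, 7.17% of the shortest 25% of genes had a summit, against 12.4, 14.2 and 13.7% in the next 3 steps of 25%.

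The 83 summits beyond 3 kb from any protein-coding gene included strong ones. The leading pair, with folds of 5.63 and 5.09, lay 5639 and 3099 bp from HB-2 (ATHB2), a homeodomain gene rapidly induced by shade. The third was the NCED3 peak with 5.05, followed by a peak 6073 bp from AT3G26539 with 4.52. Others lay near TPS10 (3.75), ERF8 (3.46), HXK1, a hexokinase that senses glucose (3.38), ARF19 (3.10) and NRT1.1, a nitrate transporter and sensor (3.06).

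Peak width had a median of 818 bp, with quartiles of 594 and 1182 bp and a range of 209 to 5442 bp. The peaks covered 3730576 bases in all. Wider than 1000 bp were 1303 peaks (34.6%), wider than 2000 bp 261, and wider than 3000 bp 56. The summit was usually near the middle, at a median of 49.7% of the width, and 84.2% of summits lay in the middle 50% of their peak. Width rose with fold only loosely, with a Spearman correlation of 0.289 across peaks. The widest 25% of peaks had their summit inside a gene in 43.2% of cases and the narrowest 25% in 30.0%.

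The widest peaks were not the strongest. AT5G25280 had a peak of 5442 bp (chromosome 5, 8773279 to 8778720) with a fold of 3.08, and CPK28, a calcium-dependent kinase, one of 5237 bp with 2.78. SZF1, a zinc finger protein of the salt response, had a peak of 5005 bp with 4.03. PEN3, an ABC transporter of defence, had 4858 bp with 2.48, and MYBR1, a MYB factor of the abscisic acid response, 4738 bp with 2.90. The narrowest peaks, at AT2G27500 (209 bp), AT2G24625 (232 bp) and AT1G31910 (244 bp), had folds of 2.12, 2.08 and 2.01. None of these 5 widest peaks was among the 20 strongest, but strong peaks could be wide. The peak at AT4G34150 (fold 6.12) was 3739 bp wide and that at AT4G32020 (5.90) 3332 bp. The median width was 1121 bp in the strongest 10% of peaks, against 818 bp over all.

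Most genes with a summit had a single one. Of the 3258 genes with a summit, 2881 had 1, 334 had 2, 39 had 3, 3 had 4 and 1 had 6. The 377 genes with 2 or more made up 11.6% of them (10.5 to 12.7) and 1.37% of all genes, and numbered 235 with assignment within 1 kb and 61 with outside summits only. Their strongest peak had a median fold of 2.80, against 2.39 for genes with a single summit. These values are not on equal terms, since the first is the highest of several peaks. Gene length was nearly the same, 2327 and 2322 bp. The summits were both inside and outside in 178 genes, all outside in 144 and all inside in 55. In 94 genes they flanked both ends, and in 62 they lay beyond the same end.

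The gene with most summits was LBD37, a LOB-domain factor of nitrogen responses. Its 6 peaks covered chromosome 5 from 26903560 to 26908191. In order along the chromosome they had folds of 2.69, 2.42, 2.11, 2.05, 2.19 and 2.53. The first 4 summits lay inside the gene and the last 2 at 323 and 1228 bp outside. The peaks were all weak to middling and highest at the outer ends. AT5G05140 (highest fold 3.80), HAT22 (3.34), a homeodomain gene, and AT5G65660 (2.99) had 4 summits each.

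The genes with 3 summits named here are those with the highest fold, so a strong peak in each was fixed by the choice. ST2A had folds of 2.42, 2.74 and 5.82. RTFL21, which encodes a small peptide of the ROTUNDIFOLIA-like family, had 3.83, 2.10 and 5.01. EXO had 4.88, 2.86 and 2.65. The other genes named by the same rule were ELF5A-1, a translation factor (highest fold 4.69), HMG1, an enzyme of sterol synthesis (4.60), and BME3, a GATA factor of seed germination (4.57).

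Runs of peaks could be longer than the assignment shows. When summits within 3 kb of the next were joined, the longest runs held 7 summits, near HB-2 and near LBD37, and 6 near IAA9. The seventh summit beside LBD37 was the strongest there, with a fold of 3.65, and was assigned to AT5G67411. The HB-2 run covered chromosome 4 from 9440628 to 9450898, 10271 bp. Its folds in order were 4.13, 4.47, 5.63, 5.09, 2.38, 2.38 and 2.53. The 4 strong peaks lay beyond 3 kb from any protein-coding gene, and the 3 weak ones were those assigned to HB-2, at 1747 bp, at 78 bp and inside it. By the assignment rule HB-2 therefore appears with a fold of 2.53, while the strongest peak of the run reached 5.63. The IAA9 run covered 7832 bp between AT5G65660 and IAA9, with folds from 2.08 to 2.99.

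**Figure D4:**
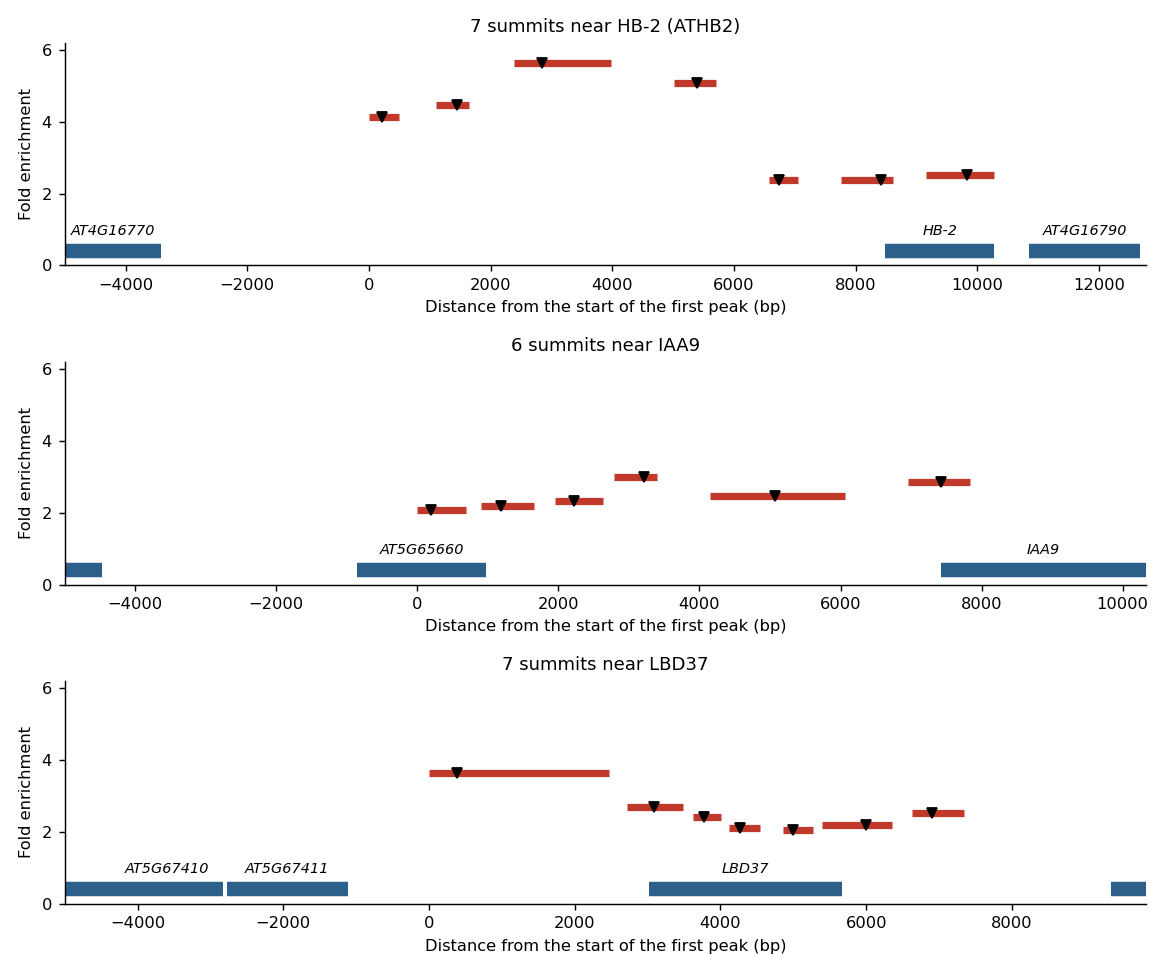
Peaks (red bars from start to end, black marks at summits) at their fold enrichment, against distance in bp from the start of the first peak, for the 3 longest runs of summits within 3 kb of the next; blue bars are protein-coding genes. At HB-2 the 4 peaks of fold 4.13 to 5.63 lie away from the gene and the 3 nearest it have 2.38 to 2.53, while at LBD37 6 peaks of 2.05 to 2.69 lie across or beside the gene.

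Neighbouring summits had a median spacing of 14947.5 bp, with quartiles of 5054 and 34494.8 bp and a range of 416 to 3168757 bp, over 3762 neighbours on the same chromosome. Only 86 (2.29%) were within 1 kb and 371 (9.86%) within 2 kb, while 929 (24.7%) were within 5 kb and 168 were over 100 kb apart. Joined at 2 kb, 3080 summits stood alone (81.8%), and there were 273 pairs and 34 groups of 3. Neighbours within 2 kb differed in fold by a median of 1.18 times. Their folds were unrelated in rank, with a Spearman correlation of -0.01 across 371 pairs that share the same libraries.

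The closest summits were 416 bp apart inside AT3G05220, with folds of 2.03 and 2.65. Next came LBD37 at 486 bp, AT1G18470 at 515 bp, EPF2, a peptide that limits stomata (537 bp), and EDF3, an ethylene-response factor (543 bp). The folds in these 5 pairs lay between 2.03 and 2.74. The longest gap on chromosome 5 ran from a summit at 10297100 near AT5G28300 to one at 13465857 near AT5G35200, 3168757 bp with 124 protein-coding genes between. On chromosome 3 a gap of 2903431 bp lay between ERD5, a proline dehydrogenase, and AT3G43430, with 118 genes, and on chromosome 1 one of 1715180 bp between NIA2, a nitrate reductase, and AT1G42430, with 20 genes.

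The chromosomes were alike as wholes and uneven along their length. Genes with a summit made up 12.2, 11.5, 12.1, 12.1 and 11.3% of the genes of chromosomes 1 to 5, with 29.1 to 33.2 peaks per Mb. In 116 windows of 1 Mb there were 0 to 72 peaks, with a median of 31.5, and 5 windows held none. Peaks followed genes, with a Spearman correlation of 0.791 across the 116 windows. Across the 90 windows with 200 or more genes it was lower, 0.561.

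Genes near the chromosome ends had summits more often than genes in the interior. Within 1 Mb of an end 550 of 2903 genes had one (19.0%, 17.6 to 20.4), and more than 10 Mb away 205 of 2983 (6.87%, 6.02 to 7.84). Between these the share went down step by step, through 13.2, 12.9, 12.2, 10.5 and 9.74%. Chromosomes 2 and 4 have no genes more than 10 Mb from an end, so that band covers the other chromosomes only. The end share was above the 11.9% of all genes on each chromosome, at 20.8, 19.0, 14.9, 18.0 and 22.3% for chromosomes 1 to 5. Chromosome 3 departed from the slope, with 16.1% at 4 to 6 Mb, above its own end. Of the 10 chromosome ends, 8 had a higher share in the first 2 Mb than at 4 to 6 Mb, and both exceptions were on chromosome 3. The 8 include the starts of chromosomes 2 and 4, where the stretch at 4 to 6 Mb was gene-poor. It held 137 and 161 genes there, with shares of 2.19 and 4.35%, against 481 to 601 genes at the other ends.

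Peak strength and gene length moved little along the arms. The median fold was 2.37 to 2.43 in every band, and the median gene length was 2108 bp in the first 1 Mb and 1938 bp beyond 10 Mb. In 90 windows with 200 or more genes the share of genes with a summit ran from 3.93 to 21.4%, and its Spearman correlation with the distance from the end was -0.66. The numbers in the authors' peak names moved with it: they rise along the genome from 9 to 24896, and the list holds 15.1% of them. Skipped numbers have no known position, so their places were estimated between the listed peaks, most loosely where these lie far apart. By this estimate the list held 19.9% of the numbers in the first 1 Mb and 11.2% beyond 10 Mb. The estimated numbers per gene went from 1.10 to 0.726. What the skipped numbers stand for is not stated, and their part in the slope was not tested.

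**Figure D5:**
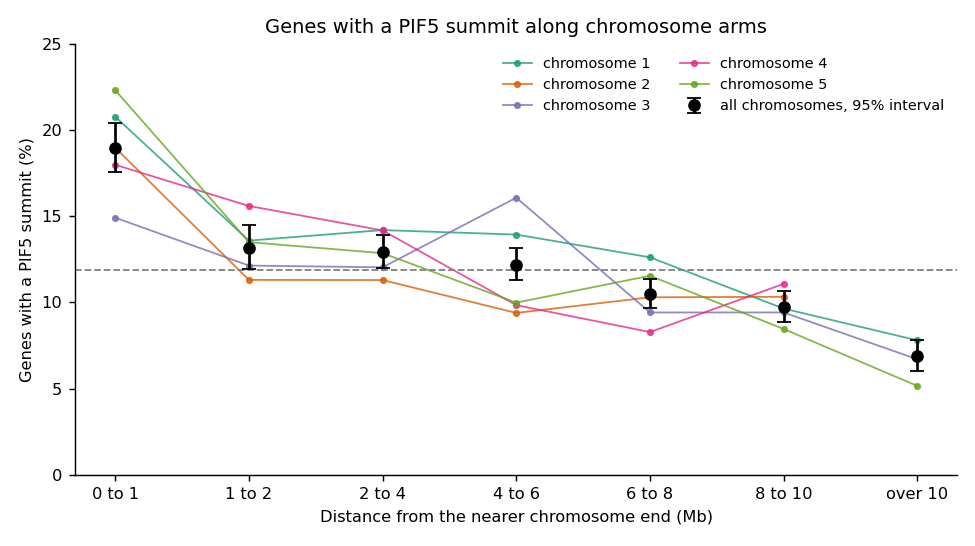
Percent of protein-coding genes with a PIF5 summit against distance in Mb from the nearer chromosome end, for all genes (black points, 95% Wilson intervals) and for each chromosome (coloured lines); the dashed line is the 11.9% of all genes. The share goes from 19.0% in the first 1 Mb to 6.87% beyond 10 Mb, with a second high point of 16.1% on chromosome 3. Chromosomes 2 and 4 have no genes beyond 10 Mb.

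Some genes with a summit also stood side by side. Neighbouring genes that both had one formed 388 runs of 2, 55 runs of 3, 18 of 4 and 3 of 5, beside 2230 genes that stood alone. With 11.9% of all genes having a summit, some runs arise in any order. Their expected number was not worked out, so these counts are no sign of clustering. A run of 5 on chromosome 4 went from AT4G27280 through BBX28 to PHOS34, and another on chromosome 1 began at KNAT2, a homeobox gene of the shoot.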

How the data were processed

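The list describes 2 pooled FLAG libraries of PIF5 against 2 IgG libraries. Tools named in the submitters' processing notes were CASAVA 1.8.2, Bowtie2 2.1.0 and MACS2 2.0.10, with the build TAIR10 and no roles or settings. The deposited columns used were the authors' ratio (fold enrichment of FLAG over control), their −log10 p, the summit offset, and a deposited score that was checked to be that −log10 p times 10, cut to a whole number, in all 3767 regions. The deposited q column was constant and was not used. Library depth was not stated, so it gives no precision here. Per-sample columns not used numbered 0.

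Positions are on TAIR10, counted from 1. Genes came from the RefSeq table of TAIR10.1 (27444 nuclear protein-coding genes on 5 chromosomes, no strand, sequence or product names), and its frame was checked by shifting it. Each summit went to the nearest protein-coding gene within 3 kb. Intervals are Wilson 95%. Steps used Python 3.11.15 with pandas 2.3.3, numpy 2.4.6 and statsmodels 0.14.6 for intervals, scipy 1.17.1 for rank correlations, and matplotlib 3.10.9, and were tested on simulated data.

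The regions, the 22 gene lists and the rules for named genes were chosen with earlier results of these data known. Named genes are the 20 with the strongest peaks, 3 middle and 3 last peaks, up to 10 genes with most summits, the 5 widest and 3 narrowest peaks, 5 closest pairs, 3 longest gaps and, per list, up to 5 members with the strongest peaks; other members, the far peaks and the families were named after their values were seen. Alternatives covered the assignment distance, the point used for a peak, the upper and lower 50% by fold, non-coding genes and merging of summits within 500 bp.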

Additional observations from a re-analysis of the deposited data

How the results depend on the processing

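With every gene within 1 kb counted, with the middle of the peak in place of the summit, and with assignment within 1 kb, the number of genes with a summit stayed within 1.5 times of 3258. It was 1758 with only summits outside genes within 1 kb and 1721 with the upper 50% of peaks by fold, both by the construction of fewer peaks. Genes with 2 or more summits numbered 235 with assignment within 1 kb, 61 with only outside summits and 109 with the upper 50%, against 377. The share of summits inside genes (35.7%) was 41.1% with the middle of the peak, 33.7% in the upper and 37.7% in the lower 50%, and 39.6% with non-coding genes; the flank share (48.3%) was 42.7% with the middle. Median width was 921 bp in the upper and 721.5 bp in the lower 50%. Spacing was 31083.5 bp in the upper 50% and 13982.5 bp between peak edges.

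The share of listed genes (37.8%, all genes 11.9%) was 32.3% within 1 kb (all genes 10.6%), 22.0% outside only (6.41%) and 27.8% in the upper 50% (6.27%). The share within 1 Mb of chromosome ends (19.0%), whose alternatives were chosen after seeing the data, was 17.4% within 1 kb, 25.9% with every gene within 1 kb (all genes 15.2%), 10.8% outside only and 10.3% in the upper 50%, above all genes each time. Against all genes under the same setting, auxin synthesis turned to below, 13.3% against 15.2%, with every gene within 1 kb, and seed and flower genes to above, 8.33% against 6.41% (outside only) and 6.27% (upper 50%), each resting on 1 or 2 genes. Of the other values by list, 72 kept within their interval and 13 moved.

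No paired analysis was possible because the list pools the replicates; leaving out a replicate was not run for the same reason. The planned share of summits before gene starts and of promoters with a G-box were not run, since strand and sequence were not at hand.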
